A study of Mus musculus with 12 samples.

Results

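Gene expression was compared between clones of tongue organoids that carry the same knock-out label and differ in how much Foxe1 transcript they hold. Organoids are epithelial cultures grown in 3 dimensions. The mouse line CVP came from the circumvallate papilla and the line FoP from the foliate papilla, taste-bearing folds at the back of the tongue, where minor salivary glands open beside taste buds. All 8 libraries used here come from clones labelled Foxe1 knock-out, with genetic modification as the treatment: clones 2.9 and 2.10 of the CVP line and clones 2.4 and 2.5 of the FoP line, each sequenced in duplicate. The series holds 12 libraries, the other 4 being duplicates of an unmodified culture of each line. The labels give no age, sex, culture time, Cre or transgene for any group, and the sources used here do not give which part of Foxe1 was altered.

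The clones were chosen by their Foxe1 counts. In each line the clone with fewer counts is called the low clone (2.10 in CVP, 2.5 in FoP) and the one with more the high clone (2.9 and 2.4), which sets 4 libraries against 4. Of 55367 genes in the deposited table, 16547 were expressed enough to test once Foxe1 was set aside. The genes described are the 235 that differed between low and high clones in a fit with line as covariate and whose low libraries both lay beyond both high libraries, in the same direction, in each line. This contrast chose the genes, so their values are a description, and the adjusted p of edgeR's quasi-likelihood test served as a filter at 0.05. Given as tests are counts of genes that differed between the clones within each line, and the comparison of the difference between the lines.

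Foxe1 is a forkhead transcription factor, a protein that binds DNA through a winged-helix domain, and is best known from the developing thyroid and palate. Forkhead factors recognise a short core written TGTTTAC, and members of the family open chromatin or act as repressors in several gut-derived tissues. In posterior tongue epithelium, stem cells of the basal layer supply stratified keratinocytes and taste cells, and the minor glands hold ducts and secretory cells. Each of these cell types is known by its own keratins, channels and secreted proteins.

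Foxe1 is a gene of chromosome 4, at 46343609 to 46346412 on the plus strand of GRCm38, and overlaps the predicted gene Gm12446 on the other strand. Clone 2.9 held 1527 and 1432 counts and clone 2.10 held 487 and 547. Clone 2.4 held 1471 and 1292 counts and clone 2.5 held 707 and 660. Scaled by library, these were 23.6 and 22.7, 7.31 and 8.45, 22.3 and 20.0, and 11.2 and 11.4 CPM, which is counts scaled to a common library size. The low clone thus held 34.0% of the high clone's level in CVP and 53.6% in FoP, or -1.55 and -0.90 on the log2 scale. Wild type stood between the clones in both lines, at 15.4 and 15.9 CPM in CVP and 16.4 and 16.0 CPM in FoP. All 12 libraries held Foxe1 transcript, so no clone lacked the RNA. Counts per gene do not show whether an edited allele still makes protein, so the knock-out label was not checked by Foxe1 and a low or high count is a transcript level only. Clone identity and Foxe1 level cannot be told apart within a line, since each level is held by 1 clone.

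**Figure D1:**
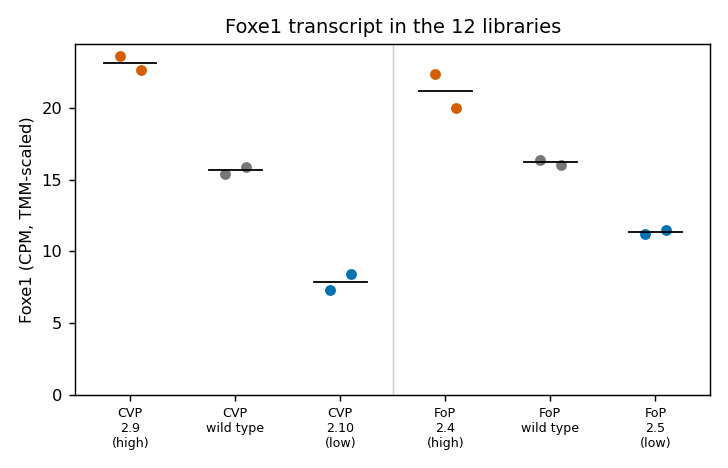
Foxe1 transcript in CPM (y axis, scaled by trimmed mean of M-values) for each of the 6 cultures, grouped by line. Points are libraries and short lines are means of the 2 duplicates, and in both lines wild type sits between the high clone (orange) and the low clone (blue), which are 23.1 and 7.88 CPM on average in CVP and 21.1 and 11.3 CPM in FoP.

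Libraries held 59.3 to 73.6 M counts, and the 8 clone libraries 59.3 to 65.6 M. Duplicates differed by more than counting noise in each culture (chi-square per gene 8.25 to 40.8 over 15112 to 15564 genes), so each library was kept. They share a clone, and p-values measure only the spread between these libraries, which may be technical. Epcam, an epithelial adhesion protein, was abundant, between 1030 and 1430 CPM in the clone libraries. Not all genes of the epithelial list were: Cldn3, a tight-junction gene, was at 0.121 and 0.247 CPM in clone 2.4. In the other clones Cldn3 stood at 7.08 to 27.7 CPM. Ptprc, H2-Aa, Lyz2 and Csf1r of the immune list, Lum and Dpt of the fibroblast list, Cdh5 (endothelial), Nefl (nerve) and Myod1 (muscle) had no count in the 8 clone libraries. Other members of these lists were expressed there: Postn and Fn1 of the fibroblast list stood at 2780 to 5940 and 411 to 1470 CPM, H2-Ab1 of the immune list at 8.77 to 61.9 CPM, Flt1 of the endothelial list at 119 to 160 CPM and Ncam1 of the nerve list at 46.1 to 66.6 CPM.

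In the fit with line as covariate, 241 of 16547 genes (1.46%) passed the filter, 136 higher and 105 lower in the low clones. Of these, 131 (0.792%) were higher and 104 (0.629%) lower without overlap in either line. Their median absolute log2 difference was 0.649 in CVP and 0.67 in FoP, beside 0.126 and 0.148 over all tested genes. More than a 2-fold difference in both lines was seen for 41 of the higher and 23 of the lower genes. Predicted genes made up 19 of the 235, and 172 had a mean log2 CPM of 2 or more. At the edge of the filter, Aldh2 (adjusted p = 0.047) and Sec22c (adjusted p = 0.0475) were just inside and Ptov1 (adjusted p = 0.05) and Mdm4 (adjusted p = 0.0501) just outside.

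Most genes called between the clones of 1 line were not called in the other. Tested within each line by edgeR's quasi-likelihood test, 713 genes (4.31%) differed between the CVP clones and 868 (5.25%) between the FoP clones. In both lines 221 genes differed, 122 (0.737%) with the same sign and 99 (0.598%) with opposite signs. The same-sign genes were higher in both low clones for 76 and lower for 46. Opposite-sign genes were higher in 2.10 and lower in 2.5 for 58 and the reverse for 41. For 700 genes (4.23%) the difference itself was unequal between the lines. Ranked without a test, 2199 genes (13.3%) had no overlap of libraries in the same direction in both lines and 1731 (10.5%) in opposite directions. The 2 lines' differences had the same sign for 52.11% of the tested genes.

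**Figure D2:**
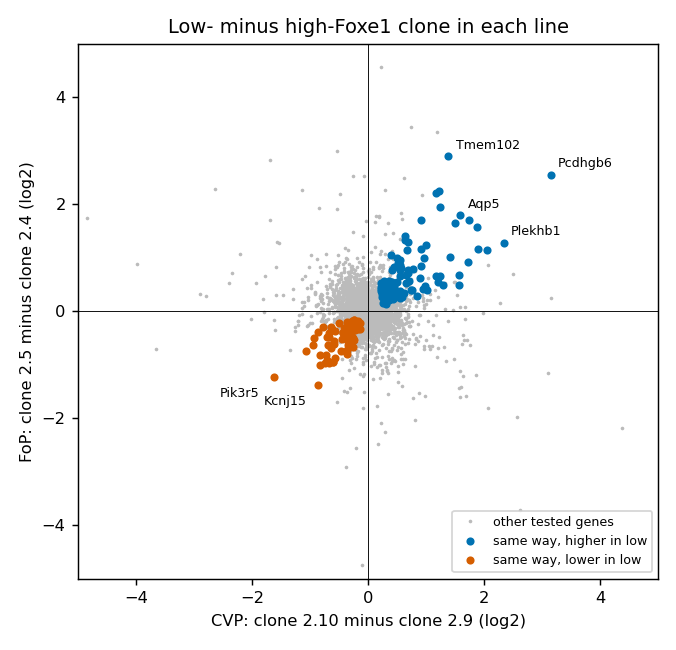
Log2 difference between the low and the high clone in CVP (x axis, 2.10 minus 2.9) and in FoP (y axis, 2.5 minus 2.4) for 10835 tested genes whose mean log2 CPM reached 2; 2 more lie outside the axes, which end at 5. Grey points fill all 4 quadrants, and the 172 coloured genes are those chosen for lying in the same direction in both lines.

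The number of genes depended on single libraries. Leaving out 1 library and refitting gave between 62 and 226 genes moving the same way, in place of 235. Without clone 2.5 duplicate 1 it was 62 and without clone 2.4 duplicate 2 it was 99. The count was 143 and 119 without either duplicate of clone 2.9, 152 without clone 2.10 duplicate 1, 135 without clone 2.4 duplicate 1 and 130 without clone 2.5 duplicate 2. It was 226 without clone 2.10 duplicate 2. With the duplicates of a clone summed to 1 sample, edgeR called 0 genes with 1 residual degree of freedom. Of 16547 genes, 813 then had an unadjusted p under 0.05 in edgeR's quasi-likelihood test, beside 2348 with all 8 libraries. The 813 are not above the share that this threshold passes where no gene differs.

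**Figure D3:**
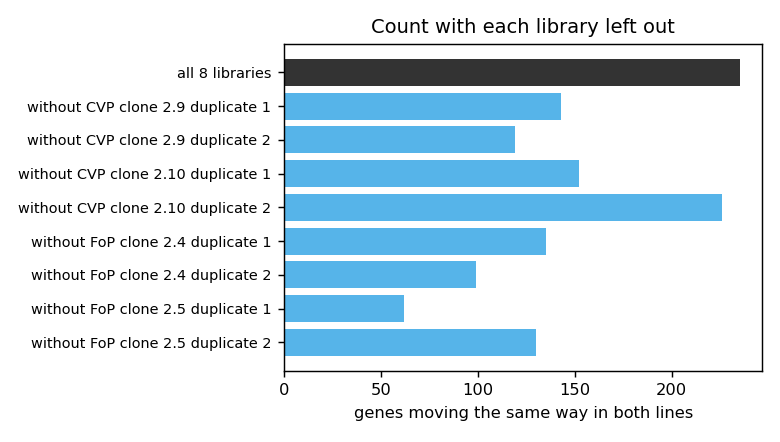
Number of genes moving the same way in both lines (x axis) with all 8 clone libraries (dark bar) and with each library left out (light bars). The count falls from 235 to between 62 and 152 for each library left out except clone 2.10 duplicate 2, without which it is 226.

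The next genes are the 12 higher ones with the largest smaller-of-the-lines difference among those with a mean log2 CPM of 2 or more; some less abundant genes differed by more. Aqp5, the water channel of the apical membrane of salivary acinar cells, stood at 73.9 and 69.5 CPM in clone 2.9 and at 242 and 189 CPM in clone 2.10. It stood at 40.2 and 38.7 CPM in clone 2.4 and at 132 and 143 CPM in clone 2.5. The low libraries were above the high ones in both lines, by 1.58 ± 0.11 in CVP and 1.80 ± 0.11 in FoP (log2 difference ± SE). Wild type was within the range of the low clone in CVP (197 and 215 CPM) and nearer the high clone in FoP (67.0 and 75.3 CPM).

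Trf encodes transferrin, the iron carrier, which several glands secrete. It was at 34.8 and 35.6 CPM in clone 2.9, 98.7 and 101 CPM in clone 2.10, 39.6 and 34.0 CPM in clone 2.4 and 128 and 102 CPM in clone 2.5. Both low clones were alike and both high clones were alike, while CVP wild type lay far above either clone at 271 and 367 CPM. The log2 difference was 1.5 ± 0.11 in CVP and 1.65 ± 0.11 in FoP. Slc15a2, a peptide transporter, was at 7.51 and 6.52 CPM in clone 2.9 against 30.0 and 28.1 CPM in clone 2.10, and at 2.81 and 1.81 CPM in clone 2.4 against 6.24 and 4.02 CPM in clone 2.5. The low libraries were above the high ones in both lines, from a lower level in FoP.

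Hsd17b11, a lipid-droplet dehydrogenase of the hydroxysteroid family, rested at 4.06 and 4.43 CPM in clone 2.9, 15.3 and 15.6 CPM in clone 2.10, 3.25 and 2.83 CPM in clone 2.4 and 9.25 and 8.79 CPM in clone 2.5. Duplicates were close and the groups far apart, with log2 differences of 1.86 ± 0.13 and 1.57 ± 0.13. Pdlim3, a PDZ and LIM protein of actin filaments, was at 7.0 and 6.15 against 24.8 and 24.1 CPM in CVP and at 4.26 and 3.34 against 10.2 and 6.85 CPM in FoP. Wild type lay between the clones in both lines for Aqp5, Hsd17b11, Pdlim3, Plekhb1, Tmem102 and Pcdhgb6 among the 12, as it did for Foxe1.

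Tle6, a Groucho-family protein, was at 11.9 and 13.0 against 26.9 and 31.6 CPM in CVP and at 7.0 and 6.01 against 25.6 and 24.9 CPM in FoP. Spock2, a matrix proteoglycan, was at 35.4 and 36.0 against 84.2 and 75.5 CPM in CVP and at 14.5 and 13.4 against 66.8 and 62.3 CPM in FoP. The low clones of the lines were closer to each other than the high clones for both genes. Plekhb1, a pleckstrin-domain protein, was at 22.7 and 19.4 against 103 and 109 CPM in CVP and at 25.5 and 20.2 against 61.0 and 50.5 CPM in FoP. Rgl3, an effector of Ras-like GTPases, was at 2.93 and 4.30 against 6.14 and 10.6 CPM in CVP and at 1.40 and 1.36 against 8.04 and 5.08 CPM in FoP, and wild type held more than any clone (21.2 to 27.8 CPM).

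Prrx1 is a homeobox factor of mesenchyme. Its libraries held 148 and 72 counts in clone 2.9, 382 and 371 in clone 2.10, 212 and 221 in clone 2.4 and 654 and 652 in clone 2.5. Wild type held more than any clone, at 25.7 and 25.5 CPM in CVP against 1.14 to 11.3 CPM over the clone libraries. Prrx1 and Col1a2, a chain of type I collagen, were the only 2 of 11 tested fibroblast-list genes to move the same way. Both were higher, as were 0.792% of all tested genes. The summed level of the 16 listed fibroblast genes overlapped in CVP, at 5448 to 6370 CPM in 2.10 against 4309 to 5628 CPM in 2.9. In FoP the sum was lower in the low clone, at 3298 to 3458 CPM in 2.5 against 6521 to 6861 CPM in 2.4. Most of this sum was Postn and Fn1. With Lum and Dpt at 0 throughout, the part of stromal cells in these values was not tested. In bulk RNA, fewer cells of a type and less RNA per cell cannot be told apart.

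**Figure D4:**
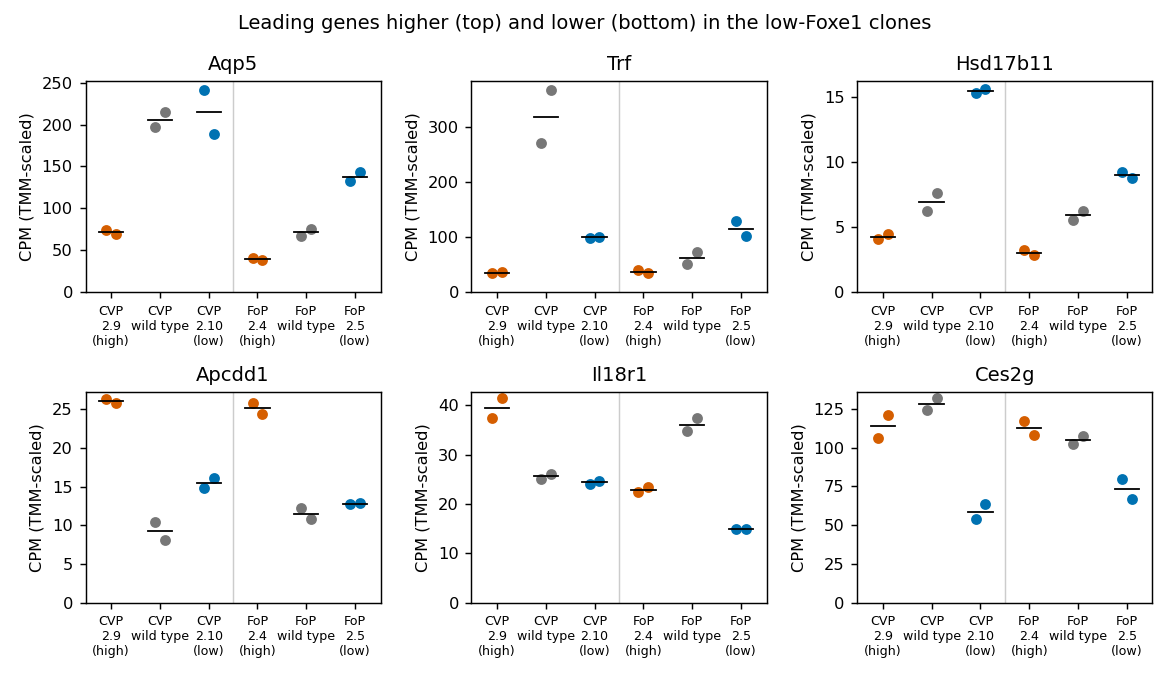
Level in CPM (y axis of each panel, starting at 0) of Aqp5, Trf and Hsd17b11, which were higher in the low clones, and of Apcdd1, Il18r1 and Ces2g, which were lower, in the 6 cultures (x axis). Points are libraries and lines are means of the 2 duplicates; the low (blue) and high (orange) points do not overlap within a line, while wild type (grey) lies between them, above them or below them depending on the gene and line.

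The 12 lower genes chosen by the same rule included Apcdd1, Il18r1, Il2rg and Pik3r5. Apcdd1, a membrane inhibitor of Wnt signalling, was at 26.4 and 25.8 CPM in clone 2.9, 14.8 and 16.2 CPM in clone 2.10, 25.9 and 24.4 CPM in clone 2.4 and 12.7 and 12.9 CPM in clone 2.5. The high clones of both lines were at nearly the same level, and wild type lay below all clones in CVP (10.4 and 8.10 CPM) and below them in FoP (12.2 and 10.8 CPM). The log2 differences were -0.75 ± 0.08 and -0.97 ± 0.09. It was the only 1 of 22 tested genes of the Wnt target and feedback list to move the same way. Over all tested genes 1.42% did.

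Il18r1, the receptor chain for interleukin 18, held 37.4 and 41.5 CPM in clone 2.9 and 24.1 and 24.7 CPM in clone 2.10. It held 22.4 and 23.5 CPM in clone 2.4 and 14.9 and 15.0 CPM in clone 2.5, so the high FoP clone was at the level of the low CVP clone. The log2 differences were -0.69 ± 0.08 in CVP and -0.62 ± 0.08 in FoP. Il2rg, the common gamma chain of interleukin receptors, was at 16.3 and 15.3 against 7.72 and 9.98 CPM in CVP and at 15.8 and 13.9 against 7.08 and 7.70 CPM in FoP. Pik3r5, a regulatory subunit of phosphoinositide 3-kinase gamma, was at 3.31 and 4.87 against 1.01 and 1.65 CPM in CVP and at 10.9 and 12.4 against 4.71 and 5.22 CPM in FoP. None of the 5 tested genes of the immune marker list moved the same way, where 1.42% of all tested genes did. At that share a list this short can hold none. The sum of all 12 listed genes was 11.4 to 17.2 CPM in 2.10 against 19.2 to 21.3 CPM in 2.9. In FoP that sum was 56.9 to 67.8 CPM in 2.5 against 39.7 to 42.5 CPM in 2.4.

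Kcnj15, an inward-rectifier potassium channel, was at 9.68 and 13.8 CPM in clone 2.9, 5.48 and 7.30 CPM in clone 2.10, 19.6 and 16.9 CPM in clone 2.4 and 8.14 and 5.91 CPM in clone 2.5. Trpc1, a cation channel subunit, was at 5.43 and 7.07 against 4.14 and 3.66 CPM in CVP and at 5.93 and 8.38 against 3.36 and 3.97 CPM in FoP. Duplicates of these 2 channel genes were farther apart, relative to their level, than those of Apcdd1. Alox12, a lipoxygenase of platelets and epidermis, was much more abundant, at 156 and 180 against 98.8 and 123 CPM in CVP and at 124 and 131 against 83.0 and 85.0 CPM in FoP. Its log2 difference was the same in both lines, -0.60 ± 0.10 and -0.60 ± 0.10, and wild type lay between the clones in each.

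The RNA of Xist, which coats the inactive X chromosome, was lower in the low clones. It was at 462 and 394 CPM in clone 2.9, 267 and 308 CPM in clone 2.10, 414 and 372 CPM in clone 2.4 and 233 and 194 CPM in clone 2.5. CVP wild type was lower still, at 153 and 185 CPM. Xist shares exons with Tsix on the other strand and with 4 predicted genes, and no library held over 2 counts of Ddx3y, Kdm5d, Eif2s3y or Uty, the Y-linked genes checked. Malat1, a long nuclear RNA, was at 112 and 84.4 against 62.9 and 55.7 CPM in CVP and at 68.8 and 86.3 against 40.6 and 47.9 CPM in FoP.

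Also lower were Srrm2, a splicing scaffold (-0.29 in CVP, -0.33 in FoP), and Macf1, which links actin to microtubules (-0.23 and -0.25). The 103 lower genes with an annotated transcript had a median longest transcript of 4453 bases, against 3336 bases for 130 higher genes and 3010 bases over 16228 tested genes. Their median GC content was 47.8%, 51.3% and 49.7%. Tested genes with a transcript and a mean log2 CPM of 2 or more, which leaves out the less abundant ones, were ranked by transcript length into 5 bins of 2142 to 2148 genes. In the shortest and the longest bin the median log2 difference was 0.0134 and -0.0097 in CVP and 0.0714 and -0.0459 in FoP. The part of transcript length or RNA quality in the lower genes was not tested, and these groupings were made after the values were seen.

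Gland genes were read from a list of 46 regulators and transporters, of which 43 were tested. Of these 5 moved the same way, all higher, where 0.792% of all tested genes did: Aqp5, Chrm3, Prom1, Slc26a4 and Xbp1. The list's median log2 difference was 0.0594, beside 0.00276 over all tested genes. Chrm3, the muscarinic receptor that drives saliva secretion, was at 11.6 and 12.4 against 19 and 15.2 CPM in CVP and at 7.12 and 5.84 against 12 and 12.1 CPM in FoP. Wild type held less than any clone (3.49 to 5.63 CPM). Xbp1, a factor of secretory capacity, differed little: 345 and 357 against 405 and 416 CPM in CVP and 293 and 305 against 379 and 373 CPM in FoP. Slc26a4, the anion exchanger pendrin, was near absent, at 0 and 0 counts against 10 and 14 in CVP and 6 and 14 against 84 and 42 in FoP.

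Duct markers made a shorter list, with 17 tested genes, 3 higher and 0 lower the same way and a median of 0.271. Over all tested genes 0.792% were higher and 0.629% lower. Krt8, a simple-epithelium keratin, was at 330 and 323 CPM in clone 2.9, 488 and 432 CPM in clone 2.10, 271 and 313 CPM in clone 2.4 and 422 and 428 CPM in clone 2.5, with wild type between the clones in both lines. Its pseudogene Krt8-ps was among the 235 as well, and the authors' counting may have split reads between the 2. Cldn10, a paracellular ion-channel claudin, was at 18.8 and 22.9 against 38.2 and 40.3 CPM in CVP and at 5.40 and 4.61 against 18.7 and 13.9 CPM in FoP. Cd24a, a surface glycoprotein of immature epithelium, was at 310 and 320 against 388 and 381 CPM in CVP and at 318 and 355 against 398 and 405 CPM in FoP. The sizes ranged from 0.27 ± 0.05 for Cd24a to 1.29 ± 0.19 for Cldn10 over both lines. None of the 22 tested saliva products moved the same way, in either direction, where 1.42% of all tested genes did. At that share a list this short can hold none.

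Basal and stem genes gave 3 higher and 0 lower of 38 tested, beside 0.792% and 0.629% of all tested genes. The list's median was 0.0424. Krt15, a basal keratin, was at 6.08 and 5.14 against 11.7 and 10.4 CPM in CVP and at 13.0 and 11.8 against 18.4 and 15.8 CPM in FoP. Pdpn, a mucin-like protein of basal keratinocytes, was at 150 and 173 against 360 and 385 CPM in CVP and at 263 and 249 against 386 and 361 CPM in FoP. Prom1, also on the gland list, was at 29.6 and 31.0 against 57.2 and 56.6 CPM in CVP and at 12.6 and 20.2 against 33.2 and 25.8 CPM in FoP, all below wild type (49.4 to 146 CPM) in their line. Of 50 tested lingual keratinocyte genes 1 was higher and 1 lower, beside the same shares of all tested genes. Dsc3, a desmosomal cadherin, was the lower one, at 193 and 209 against 109 and 125 CPM in CVP and at 291 and 291 against 245 and 229 CPM in FoP. S100a8, a subunit of the alarmin calprotectin, was the higher one, with 15 and 9 counts against 20 and 46 in CVP and 32 and 52 against 169 and 152 in FoP.

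Defence genes split, with 2 higher and 2 lower of 28 tested, beside 0.792% and 0.629% of all tested genes. Ccl20, a chemokine that draws CCR6-bearing lymphocytes, was at 5.6 and 4.71 against 2.39 and 1.88 CPM in CVP and at 1.64 and 1.36 against 0.587 and 0.780 CPM in FoP. Ccl28, a mucosal chemokine that glands secrete into saliva, was nearly lost from the low clones: 101 and 104 counts in 2.9, 2 and 0 in 2.10, 74 and 42 in 2.4 and 4 and 6 in 2.5. Wild type held 81 and 88 counts in CVP and 42 and 61 in FoP. Tnf, an inflammatory cytokine, was higher, at 22.0 and 20.0 against 26.5 and 28.8 CPM in CVP and at 12.3 and 11.3 against 25.7 and 23.4 CPM in FoP. Of 32 tested interferon-stimulated genes none moved the same way, where 1.42% of all tested genes did. The list's medians had opposite signs (0.894 in CVP and -0.568 in FoP).

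Matrix and adhesion genes were 2 higher and 2 lower of 41 tested, beside 0.792% and 0.629% of all tested genes. Sparc, a collagen-binding matrix glycoprotein, was at 843 and 789 against 1162 and 921 CPM in CVP and at 480 and 487 against 657 and 682 CPM in FoP. Col1a2 had 44 and 38 counts against 194 and 130 in CVP and 22 and 22 against 109 and 94 in FoP. Lower were Itga2, a collagen-receptor chain (84.8 and 98.0 against 66.5 and 79.2 CPM in CVP, 121 and 119 against 95.2 and 91.8 CPM in FoP), and Mmp10, a stromelysin with 251 and 188 against 95 and 58 counts in CVP and 50 and 38 against 10 and 6 in FoP. Counted by symbol, after the values were seen, collagens gave 5 of 32 tested genes higher (Col11a1, Col9a2, Col16a1, Col1a2, Col8a1) and 0 lower, beside 0.792% and 0.629% of all tested genes, while their median was -0.0411. Col11a1, a fibrillar collagen chain, was at 23.4 and 17.9 against 61.2 and 48.1 CPM in CVP and at 11 and 12.2 against 23.8 and 23.1 CPM in FoP.

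Enzymes of xenobiotic metabolism gave 0 higher and 2 lower of 27 tested, beside 0.792% and 0.629% of all tested genes. Adh7, the retinol-active alcohol dehydrogenase of upper-digestive epithelium, was at 5.82 and 5.24 against 3.32 and 3.58 CPM in CVP and at 10.3 and 11.4 against 8.09 and 8.26 CPM in FoP. Ces2e, a carboxylesterase, was at 13.3 and 13.9 against 9.25 and 8.85 CPM in CVP and at 12.7 and 12.1 against 8.68 and 8.17 CPM in FoP. Its neighbours on chromosome 8, Ces2f and Ces2g, were lower as well, Ces2g at 106 and 121 against 54.2 and 63.4 CPM in CVP and at 117 and 108 against 79.9 and 66.7 CPM in FoP. By symbol 4 of 11 tested carboxylesterases were lower (Ces5a, Ces2e, Ces2f, Ces2g) and 0 higher, beside 0.629% and 0.792% of all tested genes. Sequences of this family are alike, so the split of reads between its members is uncertain.

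Counts in the signalling lists were small, and 1.42% of all tested genes moved the same way in either direction. In the TGF-beta and BMP list 2 of 29 tested genes were higher and 0 lower: Fst, the secreted activin antagonist, at 78.3 and 80.6 against 104 and 101 CPM in CVP and at 54.5 and 54.8 against 67.1 and 68.8 CPM in FoP, and Id2, a helix-loop-helix inhibitor, at 51.8 and 53.4 against 75.0 and 66.5 CPM and at 33.4 and 37.1 against 39.0 and 44.2 CPM. Hey1, an effector of Notch, was the 1 of 16 Notch genes, at 6.69 and 5.62 against 14.6 and 8.70 CPM in CVP and at 1.44 and 0.989 against 2.22 and 2.38 CPM in FoP. Among 32 tested guidance genes and protocadherins outside the clusters, Sema3b and Sema6a, both semaphorins, were higher. Sema3b was at 17.3 and 15.7 against 24.3 and 24.1 CPM in CVP and at 34.2 and 31.7 against 53.6 and 51.4 CPM in FoP. Counted by symbol, after the values were seen, 4 of 17 tested semaphorins were higher (Sema6d, Sema3b, Sema6a, Sema4g) and 0 lower. Over all tested genes 0.792% were higher and 0.629% lower. The median of the semaphorins was -0.0476. No gene moved the same way among 40 cell cycle genes, 24 p53 targets, 10 Hedgehog genes, 16 retinoic acid genes, 23 other forkhead factors or 14 thyroid and palate genes. The same held for 26 glycolysis and hypoxia genes, 25 genes of cholesterol and lipid synthesis, 21 immediate early genes, 10 myoepithelial genes, 10 shared and type II taste genes and 2 type III taste genes, while Krt8 was the only 1 of 8 type I and precursor taste genes and Xbp1 the only 1 of 26 endoplasmic reticulum folding genes.

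Clustered protocadherins, which give single cells a surface identity and lie side by side on chromosome 18, held 13 of the 235 genes. Of 40 tested beta and gamma genes, 8 were higher and 5 lower the same way in both lines, 32.5% of them. The family was counted after the values were seen. Within a line, 18 differed between the CVP clones and 24 between the FoP clones, 9 with the same sign in both and 4 with opposite signs, and 15 differed unequally between the lines. Some neighbours within the clusters went opposite ways, such as Pcdhb14 (higher) and Pcdhb15 (lower in both low clones), and others the same way, such as Pcdhb17 and Pcdhb18 (both higher). Outside the clusters 5 of 368 tested genes on chromosome 18 (1.36%) moved the same way, beside 1.42% over all tested genes.

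Pcdhgb6 had the largest smaller-of-the-lines difference among higher genes with a mean log2 CPM of 2 or more. It was at 1.13 and 1.19 CPM in clone 2.9, 9.99 and 10.5 CPM in clone 2.10, 2.17 and 2.74 CPM in clone 2.4 and 15.9 and 13.0 CPM in clone 2.5, a log2 difference of 3.14 ± 0.18 and 2.56 ± 0.16. Gamma genes share their last exons, so the authors' counting could split or drop reads between them, and their single values are uncertain. Pcdhga5 showed the opposite kind of pattern, with log2 differences of -3.72 ± 0.21 in CVP and 5.36 ± 0.27 in FoP.

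**Figure D5:**
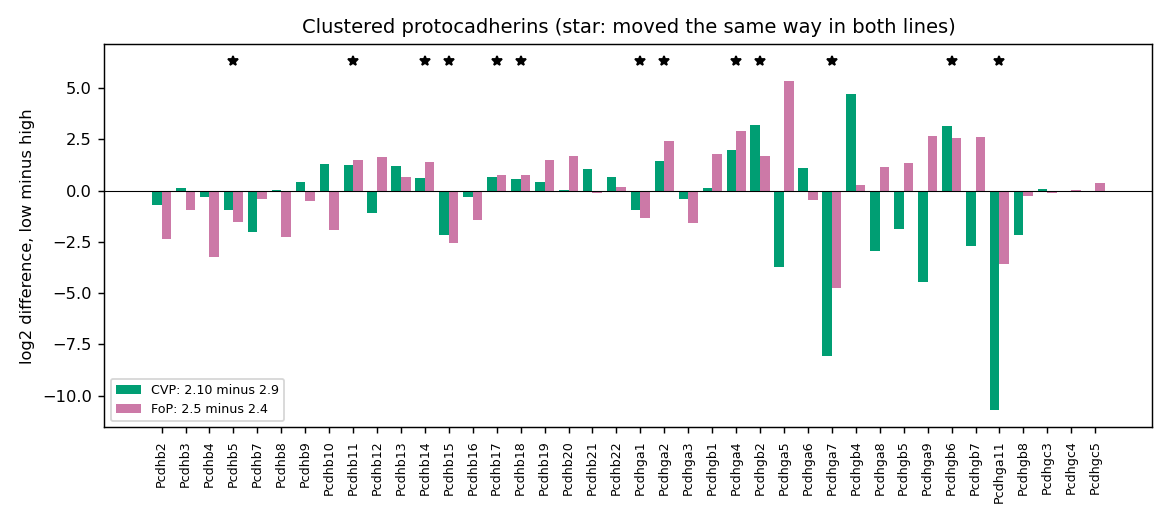
Log2 difference between low and high clone (y axis) for the 40 tested clustered protocadherins in their order along the chromosome (x axis), with CVP in green and FoP in pink. Stars mark the 13 that moved the same way in both lines, which lie on either side of 0 among others whose bars point in opposite directions.

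A further set was near absent in at least 1 clone of each line, with at most 20 counts summed over its duplicates. It held 19 of the 235 genes, 11 higher and 8 lower in the low clones. The rule did not ask that the other clone express the gene, and for some of the 19 both FoP clones were near absent. The other tested genes were not counted by it. This rule too was set after the values were seen. Camk2b, a calmodulin-dependent kinase subunit, held 2 and 7 counts in clone 2.9, 80 and 118 in 2.10, 8 and 6 in 2.4 and 98 and 140 in 2.5. G0s2, an inhibitor of triglyceride lipase, held 6 and 4, 175 and 145, 2 and 0, and 170 and 265 counts in the same order. Rab6b, a Golgi GTPase, fell outside that rule and held 180 and 203, 11 and 6, 831 and 854, and 56 and 28 counts.

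Wild type libraries were not used in choosing the genes. For 45 of the 235 genes (19.1%) wild type lay between the high and the low clone in both lines, the position that Foxe1 itself held, against 666 of all tested genes (4.02%). Among genes called in both lines this position was held by 36 of the 122 with the same sign (29.5%) and by 26 of the 99 with opposite signs (26.3%). In 61 of the 235 (26.0%) wild type lay beyond the high clone in both lines, near the 21.1% of all tested genes. In 30 (12.8%) it lay beyond the low clone in both, near the 14.5% of all tested genes. The 235 were chosen for clones that lie apart, which leaves wild type more room between them, so these shares are a description.

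Likeness to Foxe1 was measured as Pearson's r of log2 CPM over the 12 libraries, for 10820 genes whose mean reached 2. The 5 highest named genes were Pced1a (0.933), Ces2g (0.87), Mycbp2 (0.865), Rab24 (0.846) and Sox21 (0.846). Of these Ces2g, Mycbp2 and Sox21 are among the 235. Sox21, a SOX-family factor of oral and hair epithelium, was at 22.6 and 28.4 against 15.4 and 17.6 CPM in CVP and at 26.4 and 23.7 against 19.8 and 19.9 CPM in FoP, with wild type at 25.7 to 27.4 CPM. These 12 points include the 8 libraries whose Foxe1 levels chose the clones and share clones between duplicates, so r is a description. Within 500 kb of Foxe1, 12 genes were tested and none moved the same way, where 1.42% of all tested genes did. At that share a set this small can hold none.

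Promoters from RefSeq (GRCm38.p6, 250 bases before to 50 after the start) were searched for TGTTTAC on both strands. It was found in 2 of 88 higher genes (2.27%) and 3 of 77 lower genes (3.9%) with a promoter in the table, beside 367 of 11390 tested genes (3.22%) and 1095 of 27025 genes in all (4.05%). Among 39 named genes with a promoter it was in 4: Lipm, Mmp10, Pdpn and Plekhb1. Shown are Lipm, an epidermal lipase that was lower (5.16 and 5.85 against 2.37 and 2.84 CPM in CVP, 6.94 and 7.37 against 3.92 and 4.68 CPM in FoP), Pdpn, which was higher, and Ces2g, which had the highest likeness to Foxe1 among the named genes of the 235 and which has no match in this window. Capitals mark the match.
Lipm promoter, chr19:34100693-34100992, plus strand: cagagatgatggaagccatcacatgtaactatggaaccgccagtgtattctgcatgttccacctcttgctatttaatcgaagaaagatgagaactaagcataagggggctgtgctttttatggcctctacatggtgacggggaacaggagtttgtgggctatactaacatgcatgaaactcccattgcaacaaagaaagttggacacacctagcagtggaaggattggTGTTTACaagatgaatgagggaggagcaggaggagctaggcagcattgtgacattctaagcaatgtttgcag
Pdpn promoter, chr4:143299515-143299814, minus strand: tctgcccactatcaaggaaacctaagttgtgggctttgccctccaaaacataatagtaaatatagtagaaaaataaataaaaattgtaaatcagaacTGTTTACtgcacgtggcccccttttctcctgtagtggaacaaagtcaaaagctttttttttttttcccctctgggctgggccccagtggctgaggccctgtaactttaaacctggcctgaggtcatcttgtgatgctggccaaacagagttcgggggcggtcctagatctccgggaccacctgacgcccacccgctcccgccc
Ces2g promoter, chr8:104961468-104961767, plus strand: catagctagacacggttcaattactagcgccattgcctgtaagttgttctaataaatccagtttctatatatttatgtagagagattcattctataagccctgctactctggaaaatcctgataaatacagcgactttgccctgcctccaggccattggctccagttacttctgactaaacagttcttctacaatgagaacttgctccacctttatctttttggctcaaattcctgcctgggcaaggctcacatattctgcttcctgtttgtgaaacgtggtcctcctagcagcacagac
The match starts 22 bases before the start in Lipm and 153 bases before it in Pdpn. A match is a description of these letters and says nothing of binding.

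The difference between clones was itself unequal between the lines for 18 of the 235 genes by edgeR's quasi-likelihood test, beside the 4.23% of all tested genes given above. The fit that chose the 235 counts unequal differences as spread and favours large differences, so the choice acts on this count and its p-values. Of the named genes that passed this test Tmem102, a transmembrane protein, had the largest value. It was at 6.55 and 6.66 CPM in clone 2.9, 16.7 and 17.7 CPM in clone 2.10, 3.48 and 3.77 CPM in clone 2.4 and 26.6 and 27.5 CPM in clone 2.5. Its difference was larger in FoP by 1.52 ± 0.14 (adjusted p = 0.000148, edgeR). Spock2 was also unequal toward FoP, by 1.05 ± 0.10 (adjusted p = 0.000213, edgeR), and Pdpn toward CVP, by -0.66 ± 0.11 (adjusted p = 0.00504, edgeR).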

How the data were processed

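Poly(A) RNA was sequenced from organoids of the CVP and FoP lines with TruSeq stranded libraries, per the labels' protocols. The authors deposited raw counts per gene. STAR, featureCounts and hg38 are named in the submitters' processing notes with no versions. The symbols are those of mouse, and 96.1% of them match exactly 1 gene of the GENCODE M21 annotation. No source used here gives the strand setting of the counting, so genes overlapping on opposite strands were not told apart. No column of the table was left unmapped (0).

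Clones were ordered by Foxe1 counts, and Foxe1 was left out of tests. Genes were kept by filterByExpr over the 4 clones, scaled by TMM over the 12 libraries (depth 59.3 to 73.6 M counts) and fitted with edgeR 4.0.16 (robust quasi-likelihood, R 4.3.3) on line and low against high, with 5 residual degrees of freedom. A fit with 1 coefficient per clone gave the difference within each line and between lines. P-values were adjusted by Benjamini and Hochberg over 16547 genes, at 0.05. The fit was tested on simulated libraries drawn independently of their clone, so that check does not cover duplicates that share a clone. SE is the log2 difference over the root of F, an approximation. CPM values are computed from the deposited counts with TMM-scaled library sizes.

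Members, clones and the 34 gene lists were chosen with earlier results of these data known. Named genes are the 12 per direction with the largest smaller-of-the-lines difference and a mean log2 CPM of 2 or more, and up to 4 members of each list. Others were picked after their values were seen: Camk2b, G0s2, Rab6b, Srrm2, Macf1, Krt8-ps, Col11a1, Ces2f, Ces5a and the clustered protocadherins other than Pcdhgb6. Sema4g and Sema6d were picked in that way too. Predicted genes were counted and not named, apart from Gm12446, and 1 gene among those near absent in a clone is not reported here. Alternatives used DESeq2 1.42.0, limma 3.58.1, other filters and scalings, and left-out libraries. Promoters were searched with Python 3.11.15.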

Additional observations from a re-analysis of the deposited data

Results flagged for a closer look

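In 7 of the named genes the clone difference was unequal between the lines by edgeR's quasi-likelihood test with Benjamini-Hochberg adjustment, while every low library lay beyond every high library of its line in the same direction. The choice of these genes acts on this test too, since the fit that chose them counts unequal differences as spread. Values are the log2 difference of FoP minus that of CVP. The desmosomal cadherin Dsc3 gave 0.484 (adjusted p = 0.0238), from -0.78 in CVP and -0.30 in FoP. Pdpn gave -0.6624 (adjusted p = 0.00504), from 1.21 and 0.54. Plekhb1, a pleckstrin-domain protein, gave -1.047 (adjusted p = 0.0153), from 2.33 and 1.28. Spock2 gave 1.046 (adjusted p = 0.000213), from 1.16 and 2.21. Tle6, a Groucho-family protein, gave 0.7237 (adjusted p = 0.0238), from 1.23 and 1.96. Tmem102 gave 1.52 (adjusted p = 0.000148), from 1.38 and 2.90. The cytokine Tnf gave 0.6602 (adjusted p = 0.017), from 0.39 and 1.05. The Foxe1 difference itself was larger in CVP (-1.55) than in FoP (-0.90), while Spock2, Tle6, Tmem102 and Tnf differed more in FoP.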

How the results depend on the processing

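Values follow this order: genes called, moving the same way, unequal between lines, called in both lines with the same sign, and with opposite signs (241, 235, 700, 122 and 99). They became 1302, 712, 1478, 275 and 267 with no filter, 801, 719, 1113, 192 and 168 by the DESeq2 Wald test, and 22, 19, 153, 17 and 11 against a 2-fold change. The first 2 were 1236 and 818 with all 12 libraries in the fit and 0 and 0 with duplicates summed per clone. CVP alone gave 420 called genes and FoP alone 1762. Leaving out 1 library gave 66 to 231, 62 to 226, 340 to 843, 54 to 145 and 49 to 143. DESeq2 size factors, the stricter filter (1 CPM in 4 libraries), voom with clone as block and halved counts kept each count they gave within 1.5 times. In voom the consensus correlation of duplicates was 0.0113, so the clone block could change little and is no allowance for duplicates sharing a clone. With the replicate number as a block they were 176, 171, 889, 156 and 126. The labels do not say whether duplicates with the same number were handled together. Over 6 clone pairs the correlation of their differences was between -0.17 and 0.5, and shared handling was not tested. No paired analysis of duplicates across clones follows from the labels. The cause of these changes was not tested, except that summing leaves 1 residual degree of freedom. Of 976 values of the 49 named genes under the alternatives, 674 stayed past the threshold, 302 did not; since the genes were chosen for groups that do not overlap, their direction is fixed by the choice. With 1 library left out, 19 (without clone 2.5 duplicate 1) to 35 (without clone 2.10 duplicate 2) of the 49 stayed past it. Depth limits the genes near 0: Slc26a4, S100a8 and Ccl28 rest on few counts. Only 2 clones stand for each Foxe1 level.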

Other observations

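Some genes differed between the clones of each line in the same direction and yet did not pass the fit with line as covariate. There were 9 of these, 7 higher and 2 lower in the low clones, and all were named after their values were seen. Cldn3, a tight-junction claudin of simple epithelia, held 457 and 455 counts in clone 2.9, 1847 and 1771 in clone 2.10, 8 and 16 in clone 2.4 and 850 and 841 in clone 2.5. Wild type held far more, with 4278 and 4303 counts in CVP and 6968 and 6487 in FoP. Cyba, the membrane subunit of the NADPH oxidase, held 459 and 472, 1404 and 1571, 8 and 1, and 523 and 347 counts in the clones in that order, beside 1277 and 1437 in CVP wild type and 1125 and 921 in FoP wild type. For both, the high FoP clone was near absent for a gene that every other culture expressed. The log2 difference was larger in FoP by 4.29 ± 0.25 for Cldn3 and by 5.02 ± 0.47 for Cyba; the way these genes were picked favours unequal differences, so no test is given. Plce1, Eid2, Mlph and Akr1c13 were higher as well with the larger difference in FoP, Matn4 was higher with the larger difference in CVP, and Serping1 and Kctd12 were lower.

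Neighbouring genes were sometimes among the 235 together. Armcx2 and Armcx3, next to each other on the X chromosome among tested genes, were both higher, at 2.83 and 0.44 in CVP and 1.17 and 0.84 in FoP (log2 difference). Ccl28 and Tmem267, next to each other on chromosome 13, were both lower. Tmem267 was at 7.65 and 7.37 against 4.70 and 5.10 CPM in CVP and at 4.75 and 4.87 against 2.59 and 2.39 CPM in FoP. Asgr1 and Slc16a11 on chromosome 11 were both lower, Asgr1 with 440 and 433 counts against 51 and 51 in CVP and 70 and 80 against 24 and 35 in FoP. These pairs were picked after their values were seen.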
